A study of Mus musculus with 6 samples.

Results

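The genes described here encode the route from glucose to lactate, the export of lactate, the kinases that close pyruvate dehydrogenase and the oxygen-sensing control of hypoxia-inducible factor (HIF). They are 36 genes chosen by symbol, of 52550 genes in the deposited tables. The values are messenger RNA levels in plasmacytoid dendritic cells from C57BL/6 mouse spleen. This cell type is known for its interferon output after TLR7 meets single-stranded RNA. All 6 libraries came from cells given R837 (imiquimod), a small-molecule TLR7 agonist, for 12 hours. In 3 libraries R837 was the only agent (the R837 group), and in the other 3 taurine, an amino sulfonic acid, was given with it (the taurine group). Doses, the number and age of the mice, and any pooling of cells are not stated in the labels. No unstimulated library was analysed here, so each value compares R837-treated cells with and without taurine.

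Glycolysis splits glucose into pyruvate in the cytosol, and lactate dehydrogenase then reduces pyruvate to lactate, which leaves the cell through monocarboxylate transporters. Flux is known to be set mainly at uptake, hexokinase, phosphofructokinase and lactate export. Under low oxygen or innate stimulation the factor HIF raises transcription of most of these genes, while prolyl hydroxylases and the VHL ubiquitin ligase mark HIF alpha for destruction when oxygen is present. TLR signals are known to raise glycolysis in dendritic cells. Transcript levels measure neither enzyme activity nor flux.

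With taurine, 8 of these genes were called higher in messenger RNA and none was called lower. The called genes were the phosphofructokinase Pfkp, the activator-forming enzyme Pfkfb3, the aldolase Aldoa, the dehydrogenase Gapdh, the enolase Eno1, the pyruvate kinase Pkm, the lactate exporter Slc16a3 and the pyruvate dehydrogenase kinase Pdk3. Their changes lay between 0.29 for Aldoa and 0.65 for Slc16a3 on the log2(normalized count + 1) scale, which is 22.0% and 57.2% more. A call is an adjusted p under 0.05 from limma with an abundance trend, fitted on the 15265 genes that reached 10 normalized counts in 3 or more libraries. Of the 36 genes, 35 were tested, and the 8 calls are 22.9% of them. Over all tested genes 3.75% were called higher, 2.66% lower and 6.41% in either direction. The median log2 change was 0.16 among the 35 genes and -0.01 over all tested genes, and 26 of the 35 lay above 0 against 48.6% of all. In 15 of the 35 genes (42.9%) each taurine library lay above each R837 library, and in 3 each lay below, against 14.6% and 15.0% of all tested genes. Pdk4, a starvation-induced pyruvate dehydrogenase kinase, was listed at 0 in every library and was not tested. A second row named Aldoa was also listed at 0 throughout. On the recovered reads edgeR called the same 8 higher, where it called 3.74% of all genes higher. DESeq2 called 12 higher, the 8 with Hk1, Pfkl, Pgk1 and Eno3. It called 8.38% higher of the 11150 genes to which it gave an adjusted p, which leave out Pfkm and Egln3.

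The calls left gaps along the route. Both glucose transporters of the set, the hexokinase Hk2, the isomerase Gpi1, the mutase Pgam1, the main lactate dehydrogenase Ldha and Hif1a had no call. The 19 tested enzymes from hexokinase to lactate dehydrogenase had 5 calls (26.3%), all higher, and a median log2 change of 0.28. Over all tested genes 3.75% were called higher, and the median was -0.01. In 11 of the 19 (57.9%) each taurine library lay above each R837 library, against 14.6% of all tested genes. Summed over the 37 rows, normalized counts ran from 100731 to 104777 in the R837 libraries and from 119555 to 121363 in the taurine libraries. The means differ by 17.7%, and by 17.3% without Gapdh. In bulk samples, more RNA of a gene in each cell and more cells that hold it cannot be told apart.

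**Figure D1:**
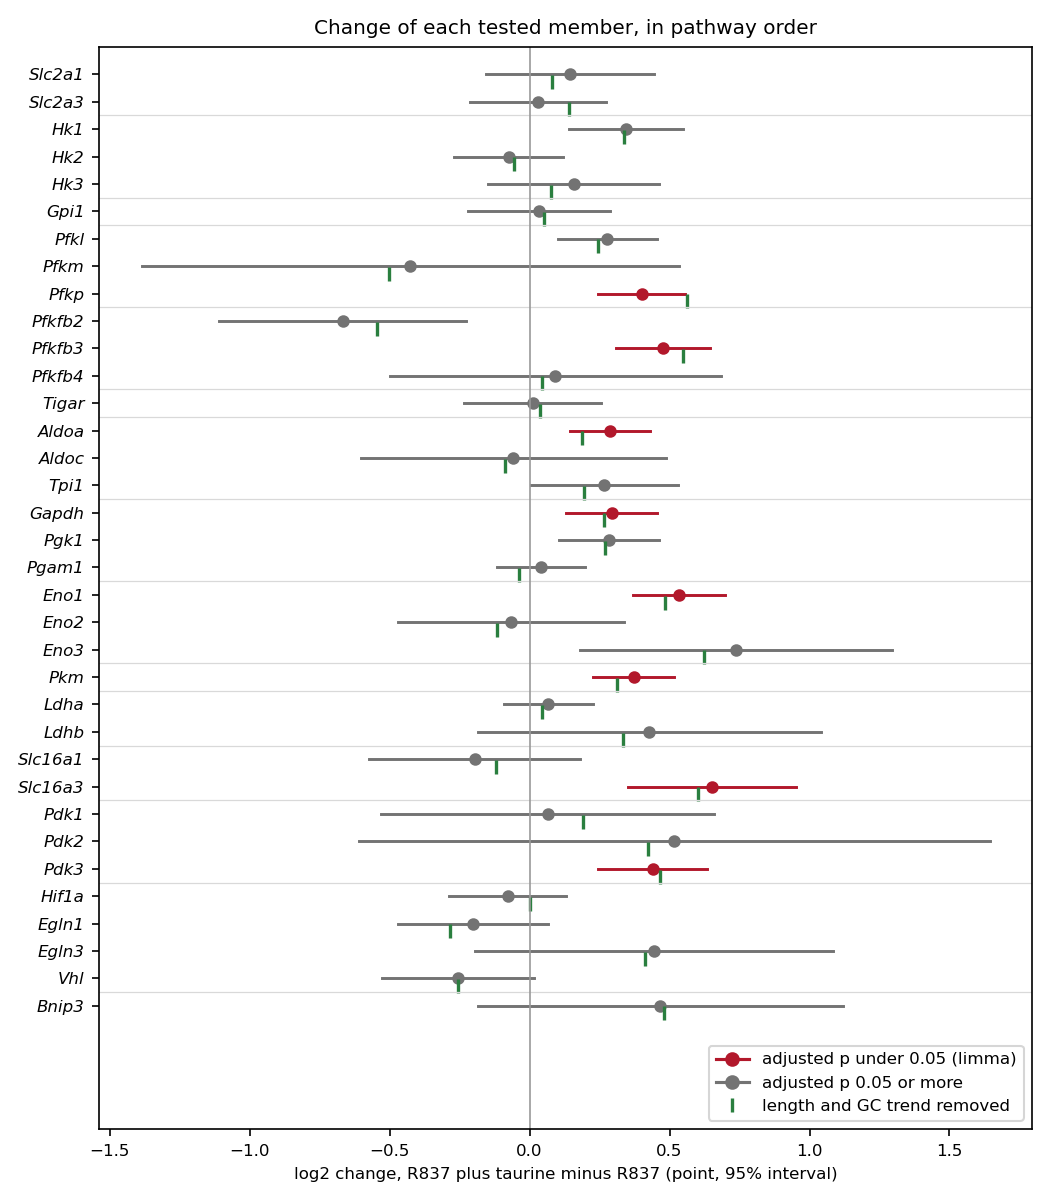
Log2 change of each tested gene (R837 plus taurine minus R837, horizontal axis) in pathway order from top to bottom, with the 95% interval from limma on 3 libraries per group. Red marks the 8 genes with an adjusted p under 0.05, all to the right of 0, and green ticks give the change after the trends with exon length and GC content were removed library by library.

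The libraries were of like depth, with 33585080 to 38392654 reads on genes, and every pair within a group differed by more than sampling noise. The labels do not say whether replicates are separate mice or cultures, so each p-value rests on the spread between these libraries alone. Summed normalized counts of 15 plasmacytoid dendritic cell markers ran from 403191 to 439858 with R837 and from 422766 to 436982 with taurine. Of these, 2 (Bst2 and Cox6a2) were higher with taurine and 4 (Tcf4, Klk1, Pacsin1 and Runx2) were lower. Over all tested genes 3.75% were called higher and 2.66% lower. Irf8 and Ly6d, neither called, held the largest parts of that sum. Irf8 had 101959 to 105432 with R837 and 106992 to 108289 with taurine, and Ly6d 94008 to 101660 and 111439 to 121261. Conventional dendritic cell markers summed to 115941 to 124347 against 99582 to 106457, with 3 of 9 lower (Clec9a, Cd8a and Flt3). Cd8a alone held 81247 to 88500 of that sum with R837 and 70729 to 75804.5 with taurine. Zbtb46 and Clec10a had log2 changes of 0.12 and 0.25 without a call, and the rest lay below 0. Monocyte and macrophage markers summed to 22051 to 23059 against 22302 to 27263 with 0 of 9 tested genes called, and plasma cell markers to 20925 to 23529 against 20600 to 21247 with 0 of 5 called. Xbp1 alone held 19514 to 22218 of the plasma cell sum with R837 and 19205 to 20136 with taurine. In the monocyte and macrophage sum Ly6c2 held 8197 to 8677 with R837 and 6869 to 10681.5 with taurine. Cd68 held 6942 to 8158 of that sum with R837 and 8518 to 9944 with taurine. B cell markers summed to 1577 to 2676 against 1731 to 2472 with 0 of 7 called. Neutrophil markers (1042 to 1531 against 1562 to 1943) and erythroid markers (91 to 143 against 170 to 269) had 1 higher call each, Ngp and Hba-a1. T cell markers summed to 463 to 502 against 346 to 407 and NK cell markers to 31 to 64 against 25 to 50. The defining T cell genes Cd3d, Cd3g and Trbc1 and the NK genes Gzma and Prf1 were listed at 0. The listed genes Cd3e, Trbc2, Ncr1 and Eomes were above 0 in some libraries, at 12.4 or less. Cd5 alone held 410 to 438 of the T cell sum with R837 and 302 to 336.5 with taurine. The part of these markers in the glycolytic changes was not tested.

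Deviations of a library from the gene means leaned with exon length in opposite directions in the groups. Spearman's rho across genes was 0.108, 0.147 and 0.0443 for the R837 libraries (replicates 1 to 3) and -0.101, -0.131 and -0.203 for those with taurine. For GC content rho was -0.0550, -0.159 and -0.0676 with R837 and -0.0441, 0.0561 and 0.234 with taurine. Median exon length was 3682 bases for the 35 tested genes and 3707 over all tested genes. With this trend and that on GC content removed, 7 of the 8 calls remained, beside 3.87% of all genes called higher. Aldoa lost its call, with a log2 change of 0.19 and an adjusted p = 0.131 by limma.

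Promoters were read for the letters ACGTG and GCGTG, the core of the element that HIF binds, on both strands in the 250 bases before each RefSeq gene start (GRCm38.p6). Promoters of 35 of the 36 genes were available, and 30 of them (85.7%) held a match in at least 1 promoter. The share was 60.3% of the tested genes with a promoter and 41.5% of all genes with one. All 8 called genes held a match, as did 21 of 26 tested genes without a call (80.8%). A gene with several promoters has more windows for a match, and the 35 genes had 51 promoters while 10015 tested genes had 12668. Per promoter the share with a match was 78.4% for the 35 genes, 85.7% for the called genes and 75.0% for the uncalled ones, against 54.7% for tested genes and 38.6% for all promoters. A match is a description of letters and not a bound site. CACGTG holds ACGTG on both strands, so the matches overlap there. Slc16a3, Pfkfb3 and Pdk3 are shown because they are called genes at 3 control points of the route, and Ldha because it holds several matches without a call. Capitals mark the matches.
Slc16a3, chr11:120948817-120949066, plus strand: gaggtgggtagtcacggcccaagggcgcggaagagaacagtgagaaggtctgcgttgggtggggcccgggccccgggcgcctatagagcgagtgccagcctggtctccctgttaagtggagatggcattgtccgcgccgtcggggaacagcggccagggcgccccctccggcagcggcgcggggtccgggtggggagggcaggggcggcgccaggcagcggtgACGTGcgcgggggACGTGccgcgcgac
Pfkfb3, chr2:11502091-11502340, minus strand: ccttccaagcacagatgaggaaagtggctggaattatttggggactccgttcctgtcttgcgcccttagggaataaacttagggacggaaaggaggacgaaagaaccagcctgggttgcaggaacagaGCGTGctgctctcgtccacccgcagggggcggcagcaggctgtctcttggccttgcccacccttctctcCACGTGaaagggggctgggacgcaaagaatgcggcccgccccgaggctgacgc
Pdk3, chrX:93832151-93832400, minus strand: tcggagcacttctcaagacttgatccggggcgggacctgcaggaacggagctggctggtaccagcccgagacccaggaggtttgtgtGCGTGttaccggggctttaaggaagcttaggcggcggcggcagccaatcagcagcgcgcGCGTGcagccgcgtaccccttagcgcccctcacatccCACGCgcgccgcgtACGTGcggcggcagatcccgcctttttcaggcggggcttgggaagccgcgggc
Ldha, chr7:46845554-46845803, plus strand: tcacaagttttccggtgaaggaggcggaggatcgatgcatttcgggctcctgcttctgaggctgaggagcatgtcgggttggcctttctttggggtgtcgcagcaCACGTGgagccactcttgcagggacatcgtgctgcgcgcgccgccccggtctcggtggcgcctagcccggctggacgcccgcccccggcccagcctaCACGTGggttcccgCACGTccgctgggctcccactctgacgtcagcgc
These windows hold 2 runs of matched letters for Slc16a3, 2 for Pfkfb3, 4 for Pdk3 and 3 for Ldha, the gene without a call. Pfkfb3 and Ldha each have another promoter in the table, not shown, with 1 run each; the window with more runs is printed.

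**Figure D2:**
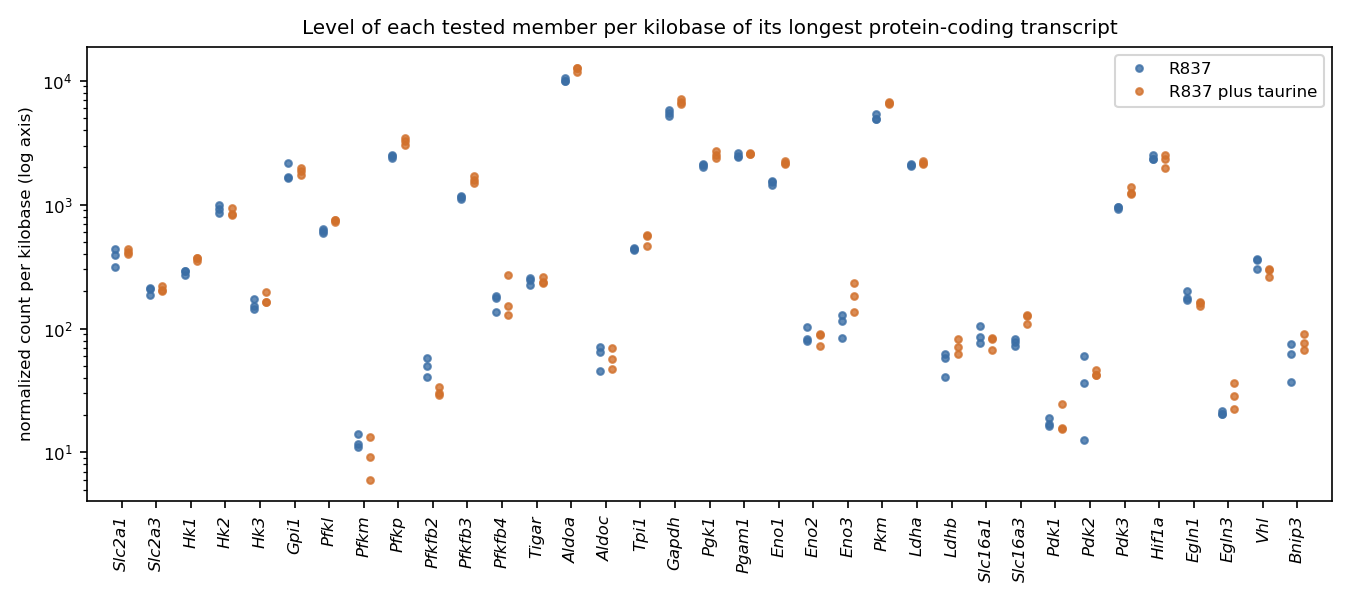
Level of each gene as normalized count per kilobase of its longest protein-coding transcript (log axis), 1 point per library and 3 libraries per group. Aldoa, Gapdh and Pkm stand highest, and Pfkm, Pdk1 and Egln3 are among the lowest of the tested genes.

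Levels can be compared between genes only per length, so the order below is in normalized counts per kilobase of the longest protein-coding transcript. Aldoa stood highest at 10148 with R837 and 12385 with taurine. Gapdh followed at 5507 and 6746, then Pkm at 5088 and 6578. Pfkp, at 2475 and 3270, and Pgk1, at 2075 and 2529.8, lay with Pgam1 at 2507 and 2579, Hif1a at 2394 and 2279.5 and Ldha at 2089.5 and 2189.6. With taurine Pfkp stood above Pgam1, whereas with R837 alone their means were close. The transporters of this set were low on this scale, Slc2a1 at 381 and 418 and Slc16a3 at 77.4 and 122. Slc2a6, a glucose transporter outside the set, stood at 10037 with R837 and 11898 with taurine. The lowest of the tested genes was Pfkm, at 12.3 and 9.50.

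Glucose uptake showed no call. Slc2a1 (GLUT1), the basal glucose carrier that innate stimuli raise, had 1285, 1018 and 1427 normalized counts with R837 and 1308, 1423 and 1354 with taurine. The groups overlap, with the lowest and the highest value both in the R837 group, and the log2 change of 0.14 had a 95% interval of -0.15 to 0.44. Slc2a3 (GLUT3), a carrier of high affinity, had 824, 843 and 743 against 804, 868 and 789, with a log2 change of 0.03 and an interval of -0.21 to 0.27. Slc2a1 took 65.0% of the summed level of both per kilobase with R837 and 66.9% with taurine.

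Hexokinases trap glucose by phosphorylation, Hk1 as the housekeeping form and Hk2 as the inducible form, both able to dock on mitochondria. Hk2 dominated, with 5434, 5091 and 4691 normalized counts with R837 and 4589, 5215 and 4639.7 with taurine. The groups overlap, and its log2 change was -0.08 (interval -0.27 to 0.12). Hk1 had 1168, 1252 and 1257 against 1575, 1495 and 1601. All Hk1 values with taurine lay above all with R837, but its log2 change of 0.35 ± 0.09 (SE) missed the threshold by limma (adjusted p = 0.0566) and passed it by DESeq2 (adjusted p = 0.0172). Per kilobase, the Hk1 share of the 3 hexokinases was 21.1% ± 1.54 with R837 and 25.8% ± 1.66 with taurine (SD, n = 3), with no overlap. The Hk2 share was 67.5% ± 2.62 and 61.8% ± 2.71, with an overlap. Hk3, the form of myeloid cells, had 492, 464 and 553 against 635, 528 and 523, which overlap, with a log2 change of 0.16.

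Gpi1, which turns glucose phosphate into fructose phosphate, had 6212, 4856 and 4752 normalized counts with R837 and 5376, 4984 and 5737 with taurine. R837 replicate 1 held the highest value of all 6 libraries, and the log2 change was 0.03 (interval -0.22 to 0.29).

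The committed step had 1 of 3 genes called higher. Pfkp, the platelet-type phosphofructokinase (ENSMUSG00000021196.14, chromosome 13, 6579768 to 6648777, minus strand, mm10), had 10527, 10324 and 9919.8 normalized counts with R837 and 12672, 14332 and 13662 with taurine. No value overlapped between the groups, and the log2 change was 0.40 ± 0.07 (SE, adjusted p = 0.0153 by limma). Exons of Pfkp and of Pitrm1, on the other strand, share 748 bases, and the sources used here do not state how strand was treated in counting. With all reads of Pitrm1 added, the log2 change was 0.28 (adjusted p = 0.0428). Pfkl, the liver-type subunit, had 2381, 2192 and 2297 against 2788, 2719.5 and 2819. Its groups did not overlap, and the log2 change of 0.28 ± 0.08 (SE) had an adjusted p = 0.0686 by limma and 0.0258 by DESeq2. Pfkm, the muscle type, was scarce at 32.1, 33.7 and 40.6 against 17.2, 26.6 and 38.2, which overlap. Pfkp made up 79.8% of the family per kilobase with R837 and 81.2% with taurine, and Pfkl 19.8% and 18.5%.

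Of the PFKFB genes, Pfkfb3 was called higher. PFKFB enzymes make or remove a fructose bisphosphate that is the strongest allosteric activator of phosphofructokinase, and Pfkfb3 has by far the highest ratio of kinase to phosphatase activity. Pfkfb3 (ENSMUSG00000026773.19, chromosome 2, 11471433 to 11554077, minus strand) had 5332, 5574 and 5600.2 normalized counts with R837 and 7537, 7209.5 and 8244 with taurine. The lowest taurine value exceeded the highest R837 value by more than the range within the R837 group. Its log2 change was 0.48 ± 0.07 (SE, adjusted p = 0.0123 by limma). Pfkfb2, the heart-type form, had 257, 221 and 180 against 148, 128 and 134, all lower with taurine, with a log2 change of -0.67 ± 0.19 (SE, adjusted p = 0.0768 by limma). Exons of Pfkfb2 share 154 bases with Yod1, and with that gene's reads added the change was -0.42. Pfkfb4 varied widely within a group, with 612, 641 and 471 against 527, 944 and 450. Per kilobase Pfkfb2 took 3.65% ± 0.643 of the family with R837 and 1.71% ± 0.177 with taurine, without overlap, while the Pfkfb3 share of 84.3% and 88.1% overlapped. Tigar, which removes the same activator, had 942, 822 and 895 against 857, 862 and 958 and a log2 change of 0.01 (interval -0.23 to 0.25).

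**Figure D3:**
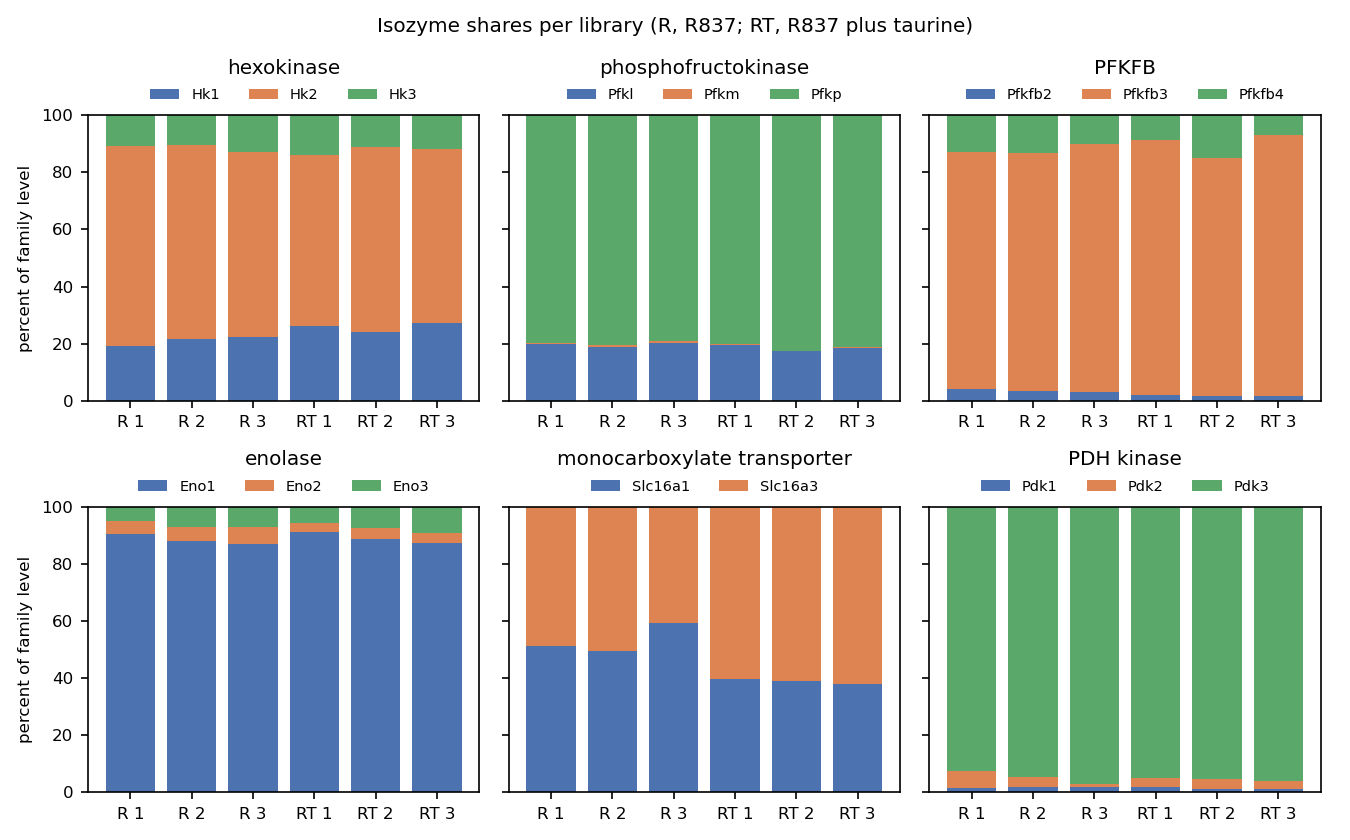
Share of each isozyme in the summed level of its family (percent, normalized counts per kilobase) in each library, for 6 families. Slc16a3 takes the larger share of the monocarboxylate transporters in every taurine library and in only 1 of the R837 libraries, while Pfkp, Pfkfb3, Eno1 and Pdk3 lead their families in all 6.

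The aldolases split the sugar, and 1 of 2 was called higher. Aldoa, the aldolase of most tissues (ENSMUSG00000030695.15, chromosome 7, 126795234 to 126808905, minus strand), had 15538, 15325 and 16295 normalized counts with R837 and 19638, 19798 and 18117 with taurine. All 3 taurine values were above all R837 values, and the log2 change was 0.29 ± 0.06 (SE, adjusted p = 0.0341 by limma). Aldoa made up 99.4% of the aldolases per kilobase with R837 and 99.5% with taurine. Aldoc, the brain-type aldolase, had 126, 197 and 181 against 193, 130 and 158. Tpi1, which interconverts both triose phosphates, had 719, 692 and 707 against 896, 914 and 750. Its groups did not overlap, and its log2 change of 0.27 ± 0.12 (SE) had an adjusted p = 0.203 by limma.

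Gapdh and Pgk1 carry out the oxidation of triose phosphate and the first yield of ATP. Gapdh (ENSMUSG00000057666.18, chromosome 6, 125161715 to 125166467, minus strand) had 8238, 7351 and 7871 normalized counts with R837 and 9498, 9182 and 10059 with taurine. The groups were apart, with a log2 change of 0.29 ± 0.07 (SE, adjusted p = 0.0476 by limma), the call nearest the threshold. This value is uncertain, since 126 annotated copies match a Gapdh transcript at 95% identity or more over at least 200 bases. Together their rows held 15450 normalized counts with R837 and 19732 with taurine on average, 202% of the Gapdh row. With their counts added to Gapdh the log2 change was 0.33 (adjusted p = 0.0188). With the reads of Iffo1, which shares 68 exon bases with Gapdh, it was 0.27 (adjusted p = 0.0643) and no longer a call. Pgk1 had 3786, 3681 and 3893 against 4569, 4307 and 4974, which do not overlap. Its log2 change of 0.28 ± 0.08 (SE) had an adjusted p = 0.0694 by limma and 0.0206 by DESeq2. Pgam1, which moves the phosphate to the next carbon, had 4636, 4286 and 4429 against 4576, 4559 and 4599. Its groups overlap and its log2 change of 0.04 had an interval of -0.12 to 0.20. Copies of Pgk1 and Pgam1 held 9.71% and 12.6% of the counts of those genes.

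Enolase and pyruvate kinase end the route to pyruvate, and both showed calls. Eno1, the enolase of most cells (ENSMUSG00000063524.13, chromosome 4, 150236721 to 150248879, plus strand), had 3096, 2939 and 3126 normalized counts with R837 and 4343, 4369 and 4556 with taurine. The groups were far apart for their spread, and the log2 change of 0.53 ± 0.07 (SE) had an adjusted p = 0.00747 by limma. Eno3, the muscle form, had 132, 179 and 202 against 212, 288 and 365, all higher with taurine. Its log2 change of 0.74 ± 0.25 (SE) was not called by limma (adjusted p = 0.110) but was by DESeq2 (adjusted p = 0.0490). Eno2, the neuronal form, had 220, 231 and 285 against 201, 246 and 255, and its share of the family per kilobase was 5.14% ± 0.562 with R837 and 3.41% ± 0.309 with taurine, without overlap. Eno1 held 88.5% and 89.1%. Pkm, which makes pyruvate and ATP and whose splice forms the gene row does not separate (ENSMUSG00000032294.17, chromosome 9, 59656368 to 59679375, plus strand), had 13129.5, 12032 and 11958 against 16005, 15679 and 16306. The lowest taurine value was above the highest R837 value, and the log2 change was 0.37 ± 0.06 (SE, adjusted p = 0.0153 by limma).

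Neither lactate dehydrogenase was called, and 1 of 2 lactate carriers was called higher. Ldha, the subunit that favours lactate formation, had 3843, 3795 and 3739.7 normalized counts with R837 and 3942, 3875 and 4106 with taurine. The groups lay just apart, but the log2 change of 0.07 was small, with an interval of -0.09 to 0.23 and an adjusted p = 0.610 by limma. Ldhb, the subunit that favours pyruvate, had 52.8, 81.8 and 75.0 against 92.9, 107 and 80.7, which overlap. Slc16a3 (MCT4), the low-affinity exporter of cells with high lactate output and a known HIF target (ENSMUSG00000025161.16, chromosome 11, 120948480 to 120960868, plus strand), had 354, 340 and 312 against 551, 558 and 476. All taurine values were above all R837 values. The log2 change was 0.65 ± 0.13 (SE, adjusted p = 0.0265 by limma), the largest among the 8 calls. Slc16a1 (MCT1), which carries lactate both ways, had 378, 340 and 466 against 368, 363 and 298, with a log2 change of -0.20 (interval -0.57 to 0.18). Per kilobase, Slc16a3 thus took 46.7% ± 5.31 of both transporters with R837 and 61.2% ± 0.758 with taurine (SD, n = 3), without overlap.

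**Figure D4:**
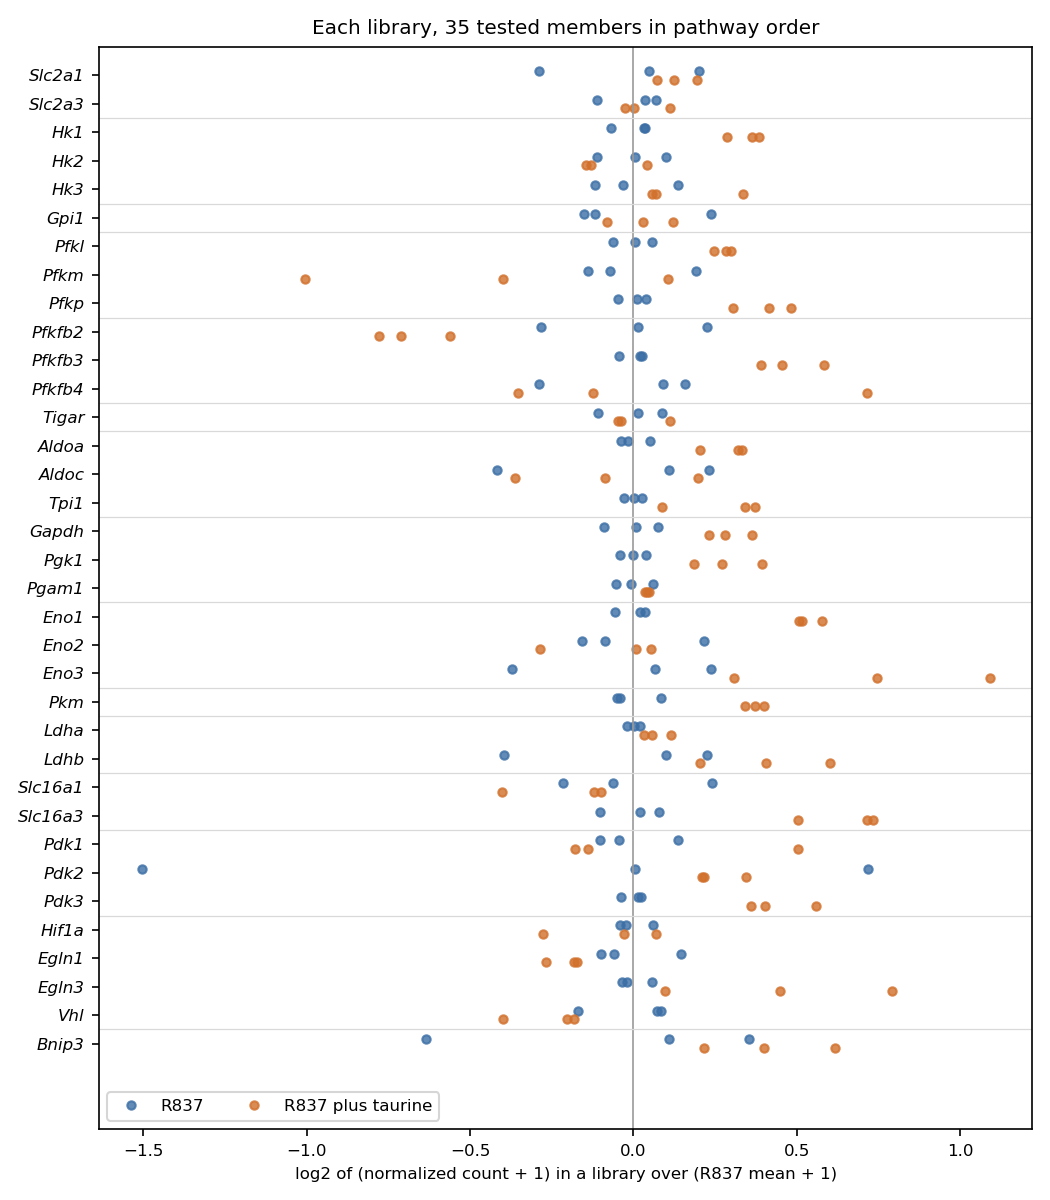
Normalized count of each tested gene in each of the 6 libraries as log2 ratio to the mean of the gene in the R837 group (1 added to each), 1 line per gene in pathway order. Points of the R837 and taurine groups separate for Pfkp, Pfkfb3, Aldoa, Gapdh, Eno1, Pkm, Slc16a3 and Pdk3 and mix for Slc2a1, Hk2, Gpi1, Pgam1 and Hif1a.

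Pyruvate dehydrogenase kinases phosphorylate the complex and so keep pyruvate out of the citric acid cycle. Pdk3, a form known to be induced by HIF, was the main one, with 94.7% of the family per kilobase with R837 and 95.4% with taurine. Pdk3 (ENSMUSG00000035232.8, chromosome X, 93764607 to 93832201, minus strand) had 2021, 2037 and 1952 normalized counts with R837 and 2649, 2569 and 2951 with taurine. The groups did not overlap, and the log2 change was 0.44 ± 0.09 (SE, adjusted p = 0.0236 by limma). Pdk1, a classic HIF target, had 84.0, 99.2 and 87.5 against 128, 81.9 and 79.6, with only taurine replicate 1 above the R837 range. Pdk2 had 135, 81.8 and 28.1 against 94.9, 104 and 94.5, with both extremes in the R837 group. Neither passed, with log2 changes of 0.07 and 0.52.

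The HIF machinery had no call in either direction. Hif1a, the oxygen-regulated subunit, had 10998, 11793 and 11143 normalized counts with R837 and 11096, 11866 and 9342 with taurine. The groups overlap, with the highest value in taurine replicate 2 and the lowest in taurine replicate 3, and the log2 change was -0.08 (interval -0.29 to 0.13). HIF alpha is controlled mainly as protein, which was not measured here. Egln1 (PHD2), the main oxygen sensor among the prolyl hydroxylases, had 614, 728 and 631 against 584, 580 and 547. Vhl, the substrate receptor of the ligase, had 1011, 1002 and 848 against 829, 840 and 723. For both genes all taurine values were below all R837 values, but the log2 changes of -0.20 and -0.26 missed the threshold (adjusted p = 0.341 and 0.235 by limma). Egln2, a prolyl hydroxylase gene outside the set, went the other way, with 2004, 1878 and 2138.5 against 2208, 2485 and 2430. Its groups did not overlap, and its log2 change of 0.24 had an adjusted p = 0.147 by limma. Per kilobase Egln2 stood at 952.5 with R837 and 1127 with taurine, and Egln1 at 183 and 159. Egln3 (PHD3), itself a HIF target, had 54.7, 57.8 and 54.1 against 96.9, 76.2 and 59.4, all higher with taurine. Its log2 change was 0.45 ± 0.28 (SE, adjusted p = 0.379 by limma). Bnip3, a mitophagy receptor and HIF target, had 110, 131 and 65.6 against 158, 135 and 119, which overlap, with a log2 change of 0.47 (adjusted p = 0.367 by limma).

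Calls depended on single libraries and on the variance model. By limma without the abundance trend none of the 35 genes was called, where 4 of all genes were, while 13 of the 35 had an unadjusted p under 0.05. Eno1 kept its call with any of the 6 libraries left out (adjusted p = 0.00791 to 0.0438 by limma). Without R837 replicate 1, 4 of the 8 genes were called (Eno1, Pfkfb3, Pfkp and Pkm), and without taurine replicate 1, 3 (Eno1, Pfkfb3 and Pfkp). Without taurine replicate 2, 2 were called (Eno1 and Pfkfb3), and without R837 replicate 2 or without taurine replicate 3 only Eno1 was. Without R837 replicate 3 all 8 were called, and Pfkfb2 was called lower. The number of calls over all genes moved as well. It was 979 with all libraries, and 326, 130 and 1503 without R837 replicates 1, 2 and 3. Without taurine replicates 1, 2 and 3 it was 340, 253 and 155, and these 6 fits tested 14909 to 14988 genes. The log2 changes moved little: Pfkfb3 ran from 0.42 to 0.52, Pfkp from 0.36 to 0.45, Pkm from 0.35 to 0.42, Pdk3 from 0.38 to 0.48 and Slc16a3 from 0.60 to 0.73. Aldoa ran from 0.26 to 0.33 and Gapdh from 0.25 to 0.33. The highest adjusted p in these fits was 0.0579 for Pfkfb3, 0.0699 for Pfkp, 0.0763 for Pkm, 0.0855 for Pdk3, 0.0939 for Slc16a3, 0.132 for Aldoa and 0.167 for Gapdh.

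Neighbouring pathways were read from 6 lists of textbook members. Among 13 tested of 22 other glycolysis genes there was no call, and the median log2 change was 0.07. The smallest p-values were those of Slc2a6, a glucose transporter of activated myeloid cells, with a log2 change of 0.25 (adjusted p = 0.0579 by limma), and of Adpgk, an ADP-dependent glucokinase, with -0.20 (adjusted p = 0.132). Of 13 genes of glycogen metabolism 1 (7.69%) was called higher, beside 3.75% of all genes called higher and 6.41% called in either direction. It was Gyg (glycogenin, the primer of glycogen), which had 936, 946 and 961 normalized counts with R837 and 1579, 1324 and 2154 with taurine. Its log2 change was 0.80 (adjusted p = 0.0269 by limma, and 0.0564 without a filter on low values). None of 10 genes of mitochondrial pyruvate entry was called, and their median was -0.03. The smallest p-values there were those of Pdp2, a pyruvate dehydrogenase phosphatase, and of Dlat, a core subunit of the complex. Their log2 changes were -0.35 and -0.40 (adjusted p = 0.0645 and 0.124 by limma). DESeq2 passed Slc2a6 as higher (adjusted p = 0.0214) and Pdp2 as lower (0.0248), but not Adpgk (0.0962) or Dlat (0.0753).

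The pentose phosphate pathway, which branches off at glucose phosphate and yields NADPH and ribose, had 3 of 12 genes called higher and none called lower, beside 3.75% and 2.66% of all genes. The median was 0.08, and 7 of the 12 changes lay above 0. Pgd, its second NADPH-forming dehydrogenase, had 5229.7, 4226 and 4130.1 normalized counts with R837 and 7435, 6675 and 6316 with taurine. The groups were apart, and the log2 change was 0.59 (adjusted p = 0.0188 by limma). Rpia, which isomerises ribose phosphate, changed by 0.41 (adjusted p = 0.0136) and Taldo1, the transaldolase, by 0.37 (adjusted p = 0.0144). The hexosamine branch, which leaves at fructose phosphate, had 2 of 7 genes called lower and none called higher. Ogt, the enzyme that attaches N-acetylglucosamine to cell proteins, had 5910.0, 6702 and 6028 against 4580.5, 4395 and 3919, all lower with taurine, with a log2 change of -0.53 (adjusted p = 0.0136 by limma). Pgm3, an earlier enzyme of that branch, changed by -0.43 (adjusted p = 0.0491).

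Other HIF pathway and target genes had 5 of 24 tested genes called higher and none called lower by limma, of 29 listed. Their median was 0.25. The calls are 20.8% of those tested, beside 3.75% of all genes called higher. In 7 of the 24 genes (29.2%) all taurine values were above all R837 values, against 14.6% of all tested genes. In 3 (Vegfa, Kdm3a and Adm) all were below, against 15.0% of all tested genes. Hmox1 (heme oxygenase) had 3049, 2349 and 2397 normalized counts with R837 and 5302, 4127 and 4492 with taurine. The groups did not overlap, and the log2 change was 0.84 (adjusted p = 0.0121 by limma). Plin2, a coat protein of lipid droplets, changed by 0.60 (adjusted p = 0.0112), Anxa2, a membrane-binding annexin, by 0.58 (adjusted p = 0.0156), Mif, a cytokine, by 0.43 (adjusted p = 0.0496) and Ndrg1, a stress-response gene, by 0.41 (adjusted p = 0.0344). Each of these 5 also answers to other factors, such as NRF2 for Hmox1. Vegfa, Kdm3a and Adm, looked up after their values were seen, had log2 changes of -0.35, -0.35 and -0.19. Their adjusted p-values by limma were 0.0879, 0.0883 and 0.224. DESeq2 passed Vegfa and Kdm3a as lower (adjusted p = 0.0412 and 0.0300), but not Adm (0.226). It also passed Ddit4 of this list as higher (log2 change 0.48, adjusted p = 0.0270 by DESeq2). With the length and GC trends removed, Mif (0.29, adjusted p = 0.0699) and Pgm3 (-0.34, adjusted p = 0.0863) lost their calls. Mif also lost its call by edgeR (adjusted p = 0.0527), without a filter on low values (0.0838) and with rescaled totals (0.0617), and Pgm3 without the filter (0.0610), as did Ndrg1 (0.0579). By limma without the abundance trend none of the called genes of the neighbouring lists kept its call, where 4 of all genes were called. Exon overlaps and copies of these other genes were not examined here.

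**Figure D5:**
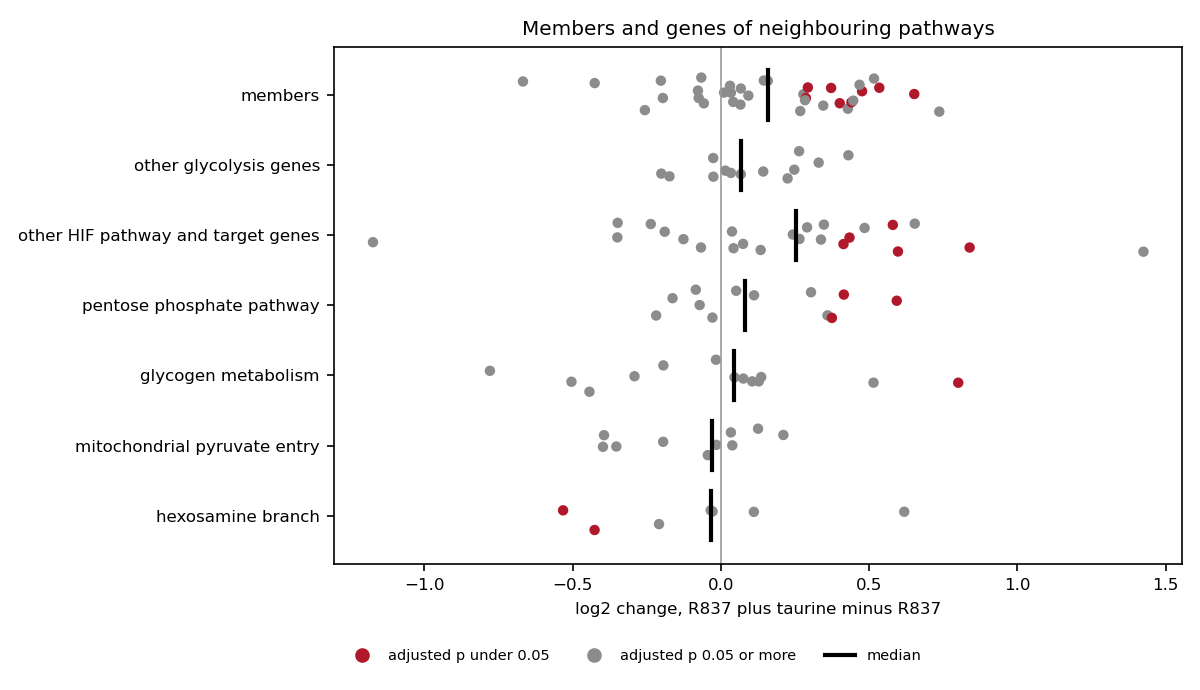
Log2 change (R837 plus taurine minus R837) of each tested gene of the described set (members) and of 6 lists of neighbouring pathways, 1 point per gene, with the list median as a black bar. Red points had an adjusted p under 0.05 by limma; they lie right of 0 in every list that has any except the hexosamine branch, where both lie left of it.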

How the data were processed

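The deposited tables hold 1 signal value for each gene, named normalized counts per the file headers; values are whole multiples of 1 step per library, so the authors deposited reads divided by a size factor (0.942 to 1.06). The submitters' processing notes list HISAT2, StringTie, mm8 and mm10 without roles or versions; the counting tool and its strand setting are not given there. A day number stood in place of 27 symbols, which were restored from the gene identifier. Genes with at least 10 normalized counts in at least 3 of 6 libraries were tested on log2(normalized count + 1) with limma 3.58.1 in R 4.3.3 (1 group term, abundance trend, two-sided, Benjamini-Hochberg over all 15265 genes); the procedure was tested on simulated data. Recovered reads went to edgeR 4.0.16 and DESeq2 1.42.0 as alternatives. Lengths, GC content and overlaps came from GENCODE M21 (mm10), where 95.2% of 52403 shared identifiers had the same coordinates. Promoters came from RefSeq (GRCm38.p6), and Slc2a3 had none in that table. Copies were found with blastn, an alternative chosen after seeing the data. The genes and lists were chosen with earlier results of these data known. By rule, every gene of the set is described, with the called genes of each pathway list or, where none is called, the 2 with the smallest p.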

Additional observations from a re-analysis of the deposited data

How the results depend on the processing

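The median log2 change of the tested genes stayed between 0.124 and 0.229 under all alternatives run. Genes called over the whole table numbered 979, against 1842 by DESeq2 and 950 by edgeR. They numbered 547 without a filter and 1182 with a mean of at least 50. By limma without the abundance trend they numbered 4, and with 1 library left out 130 to 1503. Called higher were 573 of 15265 tested genes in the main fit. With a mean of at least 50 this was 670 of 11981, and without a filter 333 of 23406. Of the glycolysis and HIF genes 8 were called higher, against 12 by DESeq2, 9 with a mean of at least 50 (Hk1 gained, adjusted p = 0.0435), 6 without a filter (Aldoa, 0.0624, and Gapdh, 0.0763, lost), 1 to 8 with 1 library left out and 0 by limma without the trend, where 13 had an unadjusted p under 0.05 and edgeR called 8; 0 were called lower by limma, and 1, Pfkfb2, without R837 replicate 3. Rescaling totals without the 50 most abundant genes gave 462 higher and 586 lower genes where 573 and 406 were called, so the higher share went from 58.5% to 44.1%, the median of all genes to -0.05, and Gapdh lost its call (7 remained). That rescaling turned Gpi1 (-0.0002), Slc2a3 (-0.0033) and Tigar (-0.0232), and the length and GC correction turned Hif1a (0.0019) and Pgam1 (-0.0383). With 1 library left out, uncalled genes that changed sign ran from -0.25 to 0.0820 (Aldoc), -0.14 to 0.0468 (Eno2), -0.0360 to 0.16 (Gpi1), -0.15 to 0.0214 (Hif1a), -0.15 to 0.19 (Pdk1), -0.11 to 1.01 (Pdk2), -0.23 to 0.31 (Pfkfb4), -0.0243 to 0.0665 (Slc2a3) and -0.0425 to 0.0553 (Tigar). The causes were not tested. With the replicate number as a block, 615 genes were called and 4 of the 8 (Eno1, Pfkfb3, Pfkp and Pkm), and Mif (adjusted p = 0.0636) and Pgm3 (0.0903) lost theirs. Same-numbered libraries deviated with correlations of -0.00264, -0.00681 and -0.0434. Such values cannot show whether same-numbered libraries share an animal or a day, so pairing stays unknown. Of the called neighbouring genes, no single library left out turned a sign, and Plin2 kept its call in 5 of 6 such fits, Hmox1 and Ogt in 4, Anxa2 and Rpia in 3, Pgd, Taldo1 and Gyg in 2, and Mif, Ndrg1 and Pgm3 in 1. At this depth Pfkm, Egln3, Pdk1, Pdk2 and Ldhb rest on few reads, and their intervals are wide.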

Other observations

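The rows of the Gapdh copies were also summed by library. Of the 126 annotated copies, 41 had a mean normalized count of at least 10. The summed rows held 15766, 14733 and 15850 normalized counts in the R837 libraries and 19458, 19238 and 20498 in the taurine libraries, so the groups did not overlap, as for Gapdh itself. Some copies, such as Gm12671, match Gapdh at 100% identity over 1002 bases, so reads on these rows may come from Gapdh. How reads with several matches were counted is not given, so the copies are no separate evidence. Copies of Eno1, Ldha and Pkm held 2.06%, 0.15% and 0.29% of the counts of those genes.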
